A study of Mus musculus with 6 samples.

Results

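The cells described here are GABA neurons of the mouse preoptic region that carried transcripts of Htr3a, Npffr1 or Thrsp. They were chosen by UMIs, the unique molecular identifiers that mark single captured RNA molecules. A barcode with at least 500 genes and at most 20% mitochondrial UMIs was taken as a GABA neuron when it held at least 4 UMIs of the neuronal genes Snap25 and Syt1, at least 3 of the GABA genes Gad1, Gad2 and Slc32a1, none of Slc17a6 (the glutamate transporter gene of excitatory hypothalamic neurons), and at most 1 of the glial and vascular genes Mog, Cx3cr1 and Cldn5. Of 12580 such neurons, the 542 with at least 2 UMIs of Npffr1, Htr3a and Thrsp together and at most 1 UMI of Moxd1 were the chosen cells, 4.31% of the GABA neurons (95% Wilson interval 3.97 to 4.68%, counting error only). The other 12038 GABA neurons were the comparison. Prox1, the remaining marker of their working name, was not used to choose them.

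Htr3a (chr9:48899213-48911099, minus strand) encodes a subunit of the ionotropic serotonin receptor, a channel that opens when serotonin binds. Npffr1 (chr10:61595492-61628565, plus strand) encodes a G-protein-coupled receptor for neuropeptides that end in arginine and phenylalanine amide (RF-amides), among them neuropeptide FF and the gonadotropin-inhibitory peptides. Thrsp (chr7:97412938-97417730, minus strand) encodes a small protein induced by thyroid hormone that is known for its part in fat synthesis. Prox1 (chr1:190118035-190170714, minus strand) encodes a homeobox transcription factor; in the forebrain it is known from interneurons born in the caudal ganglionic eminence (CGE), where Htr3a is also a defining gene. The preoptic region is a hypothalamic area with a part in mating, parenting, sleep and body temperature, and most of its neurons use GABA. Coordinates are on mouse build mm10 with the GENCODE M21 annotation.

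The study profiled single cells of the preoptic region of male and female mice by droplet RNA sequencing (10x Chromium). There were 6 libraries, 3 of females and 3 of males, each made from 3 pooled mice, 60 to 70 days old and kept singly for 3 days beforehand. The tissue was dissociated with protease and live cells were sorted; the labels name no strain, genetic change or drug. Replicates are pools. For groups of cells compared within the same libraries, p-values weigh their difference against how it varied from pool to pool. Between the sexes, p-values weigh the difference against the spread between pools. The edgeR tests used below estimate these spreads partly from other genes. A small p-value from them can therefore go with a gene that was uneven between pools. The female libraries held 115, 183 and 4 chosen cells and the male libraries 114, 103 and 23, in the order of their replicate numbers. Female replicate 3 held 410 usable barcodes of 30824 and only 4 chosen cells, so it entered the shares but no fit, which leaves 5 libraries, 538 chosen cells and 11977 other GABA neurons in the comparison with the other GABA neurons. The chosen cells were deeper: their median was 10749 UMIs, against 7168 in the other GABA neurons. The same order held in each of the 6 libraries. The doublet caller Scrublet marked 11 chosen cells (2.03%) and 209 of the others (1.74%). There were 479 barcode sequences found in more than 1 library; 14 chosen cells had such a barcode, and no barcode sequence was shared by chosen cells of different libraries.

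The UMIs of the 3 genes of the rule were found in different combinations. Of the 542 chosen cells, 159 had Thrsp UMIs alone, 124 Npffr1 alone and 63 Htr3a alone. Npffr1 and Thrsp were found together in 78 cells, Htr3a and Thrsp in 74, Htr3a and Npffr1 in 29, and all 3 genes in 15. Htr3a and Npffr1, the genes of the working name, were thus found together in 44 of the 542 cells. In all, 33.4% of the chosen cells had an Htr3a UMI, 45.4% an Npffr1 UMI and 60.1% a Thrsp UMI, while 17.0% had a Prox1 UMI. At this depth a cell without a UMI of a gene may still express it, and a cell enters with as few as 2 UMIs of the 3 genes together, so these combinations describe the UMIs found and not which genes a cell expresses. The cells are named here by the genes of the rule. At the edge of the rule, 281 cells had exactly 2 UMIs of the 3 genes and 995 cells left out had exactly 1. Another 27 GABA neurons had 2 or more of these UMIs and were left out for Moxd1.

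Expression is given as CPM: UMIs of a gene per 1000000 UMIs summed over the cells of a group within a library. By their choice, the cells held Htr3a at 69.9 and 51.1 CPM in the female libraries (replicates 1 and 2) and at 92.3, 68.1 and 132 CPM in the male ones (replicates 1, 2 and 3), the library order kept below. The other GABA neurons held 1.44 to 3.13 CPM. Npffr1 lay between 76.2 and 94.2 CPM, against 3.44 to 4.91 CPM in the others. Thrsp lay between 109 and 264 CPM, against 4.07 to 5.58 CPM in the others, and male replicate 3, with 23 cells, was the highest for both Thrsp and Htr3a. These values follow from the rule and carry no test. Genes that made a cell a GABA neuron carry no test either: Gad1 was at 596 ± 37.1 CPM (SD, n = 5 libraries) in the chosen cells and 623 ± 48.2 CPM in the others, and Slc32a1, the vesicular GABA transporter, at 454 ± 77.3 and 383 ± 40.9 CPM.

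**Figure D1:**
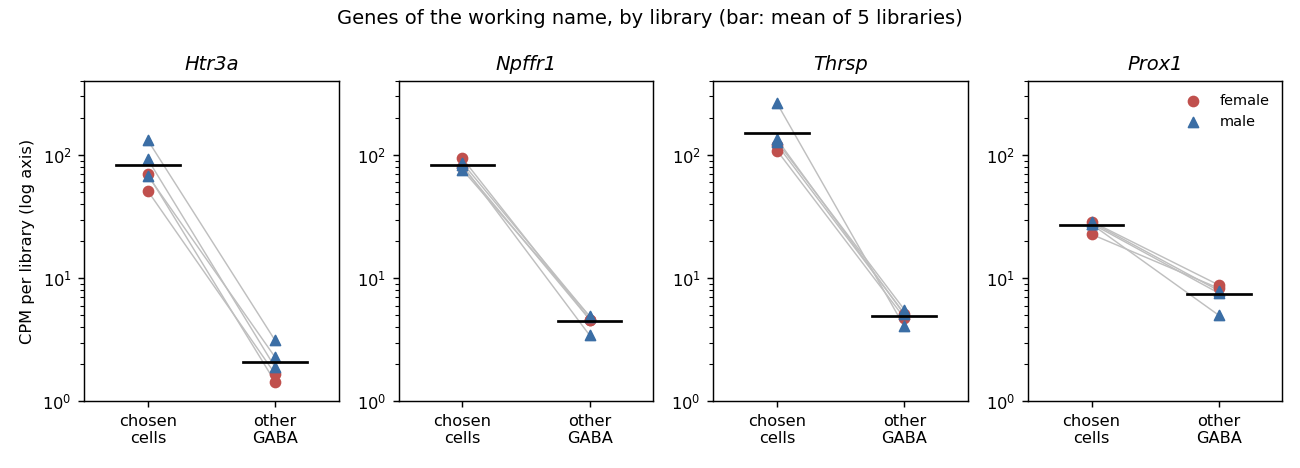
CPM of Htr3a, Npffr1, Thrsp and Prox1 (log axis) in the chosen cells and in the other GABA neurons; each point is 1 library (circles female, triangles male), lines join the groups of a library and bars are means of 5 libraries. Htr3a, Npffr1 and Thrsp differ by the choice of cells; Prox1 lies between 22.8 and 28.9 CPM in the chosen cells and between 5.0 and 8.8 CPM in the others.

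Each of the 3 genes was also higher in cells chosen by the other 2 genes alone. Among cells chosen by Npffr1 and Thrsp, Htr3a was at 26.0, 15.9, 21.8, 15.1 and 83.8 CPM (in library order), and in the remaining GABA neurons at 3.99 to 6.80 CPM. The ranges did not overlap and the difference was 2.14 ± 0.23 log2 units (SE; edgeR quasi-likelihood test with the library as block, adjusted p = 9.4e-10), where 25.6% of all genes tested passed. Among cells chosen by Htr3a and Thrsp, Npffr1 was at 13.2 to 64.0 CPM against 4.68 to 9.36 CPM, a difference of 1.68 ± 0.23 log2 units (edgeR adjusted p = 3.6e-07, 27.3% of genes passed). Among cells chosen by Htr3a and Npffr1, Thrsp was at 28.7 to 118 CPM against 9.91 to 14.7 CPM, a difference of 1.91 ± 0.20 log2 units (edgeR adjusted p = 3.3e-09, 14.1% of genes passed). All 3 genes were higher in the cells chosen without them in 5 of 5 libraries. The 3 genes were put together in the rule with earlier results of these data known. These tests are thus not independent evidence that the genes belong together. With every cell thinned to 3000 UMIs, the share of cells with a Thrsp UMI was 3.64% among those with Npffr1 and 2.91% among the rest, higher in 2 of 4 libraries. An Npffr1 UMI was, at that depth, in 6.85% of 146 cells with Htr3a and 2.31% of the rest, higher in 4 of 4 libraries. Thrsp UMIs were, likewise thinned, in 10.3% of cells with Htr3a and 2.83% of the rest, higher in 4 of 4 libraries.

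The combinations differed in other genes as well. Prox1 was at 50.04 CPM in cells with Npffr1 and Thrsp and at 79.4 CPM in those with all 3 genes, but at 7.2 CPM in cells with Npffr1 alone (pooled over libraries, without replicate error). Cells with Npffr1 alone stood apart in several ways: the nuclear factor gene Nfix was at 34.7 CPM, against 147 to 219 CPM in the other 6 combinations, and Meis2, a homeobox gene of striatal and olfactory bulb neurons, at 215 CPM, against 3.33 to 52.9 CPM. The thyrotropin-releasing hormone gene Trh was highest in cells with Htr3a and Thrsp, at 270.2 CPM, and lowest in those with Htr3a and Npffr1, at 3.33 CPM. Median depth ran from 9594 to 12091 UMIs across the combinations. The combinations of Htr3a and Npffr1 and of all 3 genes hold few cells, and a cell is placed by as few as 2 UMIs.

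**Figure D2:**
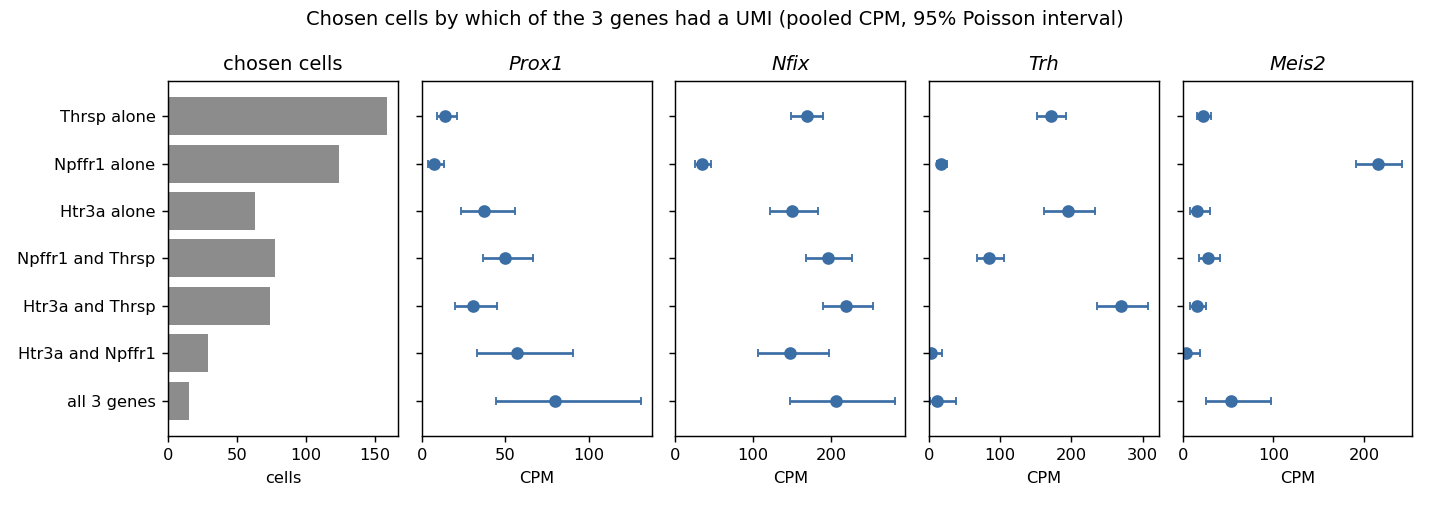
Number of chosen cells for each combination of Htr3a, Npffr1 and Thrsp UMIs (left) and the pooled CPM of Prox1, Nfix, Trh and Meis2 in each (points, with 95% Poisson intervals that cover counting error only). Cells with Npffr1 alone have the lowest Prox1 and Nfix (7.2 and 34.7 CPM) and the highest Meis2 (215 CPM).

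When all 12580 GABA neurons were clustered without the genes of the rule and without Prox1, the chosen cells fell into many of the 36 clusters. Cluster 0 held 131 of them (24.2%), cluster 13 held 110 (20.3%), cluster 22 held 49 (9.04%), cluster 11 held 45 (8.30%), cluster 10 held 32 (5.90%) and cluster 25 held 24 (4.43%). In no cluster were they the majority: they made up 27.7% of cluster 22, 27.3% of cluster 13, 16.8% of cluster 25 and 13.3% of cluster 0. Across the 5 larger libraries, cluster 0 took 19.3 to 30.4% and cluster 13 took 15.8 to 23.5% of the chosen cells. Clusters led by glial or vascular genes held 9 of them in cluster 26 (Slc1a3, Gja1), 2 in cluster 31 (Acta2, Myl9) and 2 in cluster 33 (Enpp6, Gpr17). In cluster 26, led by astrocyte genes, the 9 were 6.47% of the cells, against 4.31% over all GABA neurons, and Thrsp was found in 27.3% of the cells of that cluster, at 39.5 CPM.

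The clusters are described by their leading genes. Cluster 0 was led by the peptide genes Ucn3 and Calca, followed by Htr3a, with Qrfpr, the receptor for a further RF-amide peptide, C1ql2, Lhx1 and Npffr1 also among its 10 leading genes. Its chosen cells had no UMI of Ucn3, and Calca in 1.53%, Lhx1 in 3.82% and Qrfpr in 9.16% of cells. They had Htr3a UMIs in 54.2%, Npffr1 in 58.0%, Thrsp in 42.0% and Prox1 in 32.1% of cells, the highest Prox1 share of the 6 clusters that held most of them. Cluster 13 was led by Pmaip1, Mia and Thrsp; 84.5% of its chosen cells had Thrsp, 39.1% had Mia (a secreted protein first known from melanoma) and 11.8% had Prox1. Cluster 22 was led by Slc5a7, Slc10a4, Trh, Slc18a3 and Chat, where Slc5a7 (choline uptake), Slc18a3 (vesicular acetylcholine transport) and Chat (acetylcholine synthesis) are genes of cholinergic neurons. Of its 49 chosen cells, however, 12.2% had a Slc5a7 UMI and 2.04% each had Slc18a3 and Chat, while 95.9% had Trh, 87.8% Slc10a4, 95.9% Nfix and 53.1% Th, the rate-limiting enzyme of dopamine synthesis. Cluster 11 shared Pmaip1 with cluster 13, and its chosen cells had Thrsp in 91.1% but Nfix in 4.44% and Prox1 in 2.22%. Cluster 25 was led by the hypothalamic homeobox genes Lhx1 and Six6; 95.8% of its chosen cells had Six6 and 62.5% Lhx1. Cluster 10 was led by Gm28884, Id2, Moxd1 and St18; its 32 chosen cells had Id2 in 78.1%, St18 in 65.6%, Nfix in 84.4%, Thrsp in 68.8% and Prox1 in 28.1% of cells, and by the rule at most 1 UMI of Moxd1 each.

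**Figure D3:**
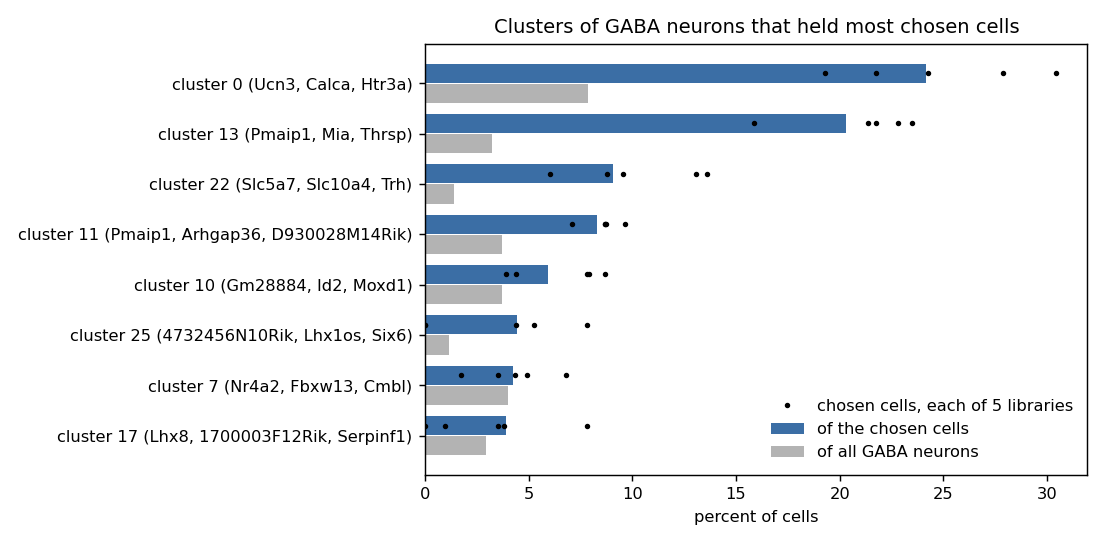
Percent of the 542 chosen cells (blue) and of all 12580 GABA neurons (grey) in the 8 clusters with most chosen cells, with dots for the chosen cells of each of 5 libraries and the 3 leading genes of each cluster. Cluster 0 holds 24.2% and cluster 13 holds 20.3% of the chosen cells, against 7.85% and 3.20% of all GABA neurons.

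Against the other GABA neurons, the chosen cells were higher in a set of transcription factor genes and lower in genes of striatal projection neurons. Of 11356 genes tested outside the rule, 3360 passed (29.6%), 1721 higher (15.2%) and 1639 lower (14.4%). Larger changes were mostly decreases: past 1 log2 unit, 87 genes were higher (0.766%) and 277 lower (2.44%). The median over all genes tested was -0.01 log2 units. The counts of the lists below are to be read beside the shares of 15.2% higher and 14.4% lower. With each cell thinned to 3000 UMIs, 1818 genes passed, 1016 higher and 802 lower.

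Prox1 was at 22.8, 28.9, 27.8, 28.5 and 27.5 CPM in the chosen cells, in library order. In the other GABA neurons it was at 8.3, 8.8, 7.6, 7.9 and 5.0 CPM. All 5 chosen values lay above all 5 others; 11.3% of the genes tested had groups that did not overlap. The difference was 1.79 ± 0.16 log2 units (SE, edgeR adjusted p = 3.2e-11). In male replicate 3, 1 of its 23 cells held 4 of the 5 Prox1 UMIs. Pooled over libraries, Prox1 was at 7.2 CPM in the 124 chosen cells with Npffr1 alone and 2.3 CPM in the 45 of cluster 11. Oligodendrocyte barcodes held Prox1 at 57.1 to 89.6 CPM in these libraries, more than either group of neurons, and 5 of 7 tested oligodendrocyte marker genes, among them Mbp, Cldn11, Mobp and Opalin, were lower in the chosen cells while none was higher. The part of oligodendrocyte RNA in the Prox1 difference was not tested. Prox1 was part of the working name, so its direction is not independent evidence for that name.

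Nuclear factor I genes were higher in the chosen cells. Nfix (chr8:84699876-84800344, minus strand) was at 152, 164, 123, 124 and 176 CPM in the chosen cells, in the same library order. In the other GABA neurons it was at 26.8 to 31.3 CPM. The ranges did not overlap, and the difference was 2.36 ± 0.08 log2 units (edgeR adjusted p = 3.3e-24). Its relatives Nfib and Nfia, which like Nfix encode transcription factors of late neuron and glia development, were higher by 1.81 ± 0.09 and 1.52 log2 units (edgeR adjusted p = 1.2e-19 and 1.4e-11). A UMI of Nfix was found in 52.6% of chosen cells, 11.4% of the others and 60.7% of oligodendrocyte barcodes. The rise was not shared by all chosen cells. Pooled over libraries, the 124 cells with Npffr1 alone held Nfix at 34.7 and Nfib at 41.9 CPM. The 45 chosen cells of cluster 11 held them at 4.68 and 37.4 CPM.

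Of 18 tested patterning factors of the hypothalamus and neighbouring regions, 9 were higher and 1 was lower, with a median of 0.56 log2 units against -0.01 over all genes. Besides the nuclear factor I genes, the higher ones were the zinc finger genes Zic1, Zic2, Zic4 and Zic5, the cut homeobox gene Onecut2 and Nkx2-1, the homeobox gene that marks the ventral forebrain. Zic2 was at 26.4 ± 10.2 CPM (SD, n = 5) in the chosen cells and 8.1 ± 1.7 CPM in the others, a difference of 1.79 ± 0.17 log2 units (edgeR adjusted p = 8.4e-11). Of 19 tested genes of CGE-type interneurons, 11 were higher (Nfix, Calb2, Prox1, Reln, Tac2, Nr2f2, Sp9, Id2, Sp8, Nr2f1 and Cck) and 4 were lower (Lamp5, Crh, Adarb2 and Npas3), with a median of 0.61. The list shares Nfix with the patterning list. Adarb2, one of the most general genes of these interneurons, was at 3.25 to 16.5 CPM in the chosen cells and 16.6 to 21.7 CPM in the others (-0.96 log2 units, edgeR adjusted p = 2.8e-04), and Lamp5 was also lower (-1.20).

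The calcium-binding protein gene Calb2 (calretinin; chr8:110137502-110168210, minus strand) was high in absolute terms. It was at 446 and 479 CPM in the chosen cells of the female libraries and at 632, 653 and 803 CPM in those of the male libraries. The other GABA neurons held 269 to 321 CPM. No library of one group reached the other, and the difference was 1.04 ± 0.06 log2 units (edgeR adjusted p = 6.4e-17). A Calb2 UMI was found in 74.0% of chosen cells, 46.3% of the others and 15.2% of oligodendrocyte barcodes, which serve here as a measure of free RNA. Reelin (Reln), an extracellular matrix protein, was also higher (1.29 log2 units, edgeR adjusted p = 5.6e-11).

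Of 17 tested genes of neurons from the medial ganglionic eminence (MGE), 5 were higher (Zic1, Nkx2-1, Pvalb, Etv1 and Kcnc1) and 8 lower (Npy, Sst, Chodl, Satb1, Sox6, Lhx6, Kcnc2 and Nos1), with a median of -0.25. Without cells that carried striatal genes, defined below, 3 were higher and 9 lower. Pvalb, which encodes parvalbumin, was found in 12 of the 542 chosen cells (2.21%) and 2.09% of the others; it was at 0, 29.8, 64.5, 4.6 and 0 CPM in the chosen cells in library order and 4.7 to 8.9 CPM in the others, so it was higher in only 2 of 5 libraries. Npy and Sst, which encode neuropeptide Y and somatostatin, differed by -2.27 ± 0.16 and -1.24 ± 0.14 log2 units (edgeR adjusted p = 3.5e-14 and 1.1e-08). Sst in the chosen cells was uneven, at 281, 270, 216, 58.9 and 5.5 CPM in the same library order; in male replicate 1, a single cell held 49.0% of these UMIs. Of 23 factors of GABA neuron fate, 7 were higher, among them Dlx1, Dlx2, Six3 and Sp9, and 9 were lower, among them Meis2 and Bcl11b. The difference in Meis2 was -1.88 ± 0.09 log2 units (edgeR adjusted p = 6.7e-20).

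Other genes with large positive differences were Mia, Trh, St18, Tekt2, Hspb8, Zbtb16, Slc10a4 and Tgfb2. Mia was at 43.1, 17.3, 52.9, 41.4 and 82.5 CPM in the chosen cells in the same library order. The other GABA neurons held 3.2 to 5.9 CPM, and the difference was 3.31 ± 0.20 log2 units (edgeR adjusted p = 4.6e-16). Mia varied between clusters, with 107 CPM in the chosen cells of cluster 13 and no UMI in the 45 chosen cells of cluster 11. Trh was at 110 to 242 CPM in the chosen cells and 15.2 to 38.1 CPM in the others (2.45 ± 0.14, edgeR adjusted p = 1.2e-16), with 911 CPM in the chosen cells of cluster 22 and 14.0 to 137 CPM in those of clusters 0, 13, 11, 10 and 25. Slc10a4, a vesicular transporter of cholinergic and monoaminergic neurons, differed by 1.64 ± 0.16 log2 units and was likewise highest in cluster 22. The zinc finger gene St18 (2.18 ± 0.18) was at 210 CPM in the chosen cells of cluster 10 and 137 CPM in those of cluster 22, but at 2.3 to 20.3 CPM in clusters 0, 13, 11 and 25. A UMI of St18 was found in 16.6% of chosen cells, 3.46% of the others and 36.9% of oligodendrocyte barcodes.

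Genes of striatal projection neurons, the main GABA neurons of the striatum above the preoptic region, were among the largest decreases, beside Prok2, Avp and Crym. Of 19 tested, 16 were lower and 1, Six3, was higher, with a median of -1.88 log2 units. Ppp1r1b, which encodes the dopamine-regulated phosphatase inhibitor DARPP, was at 5.5 to 65.4 CPM in the chosen cells and 186 to 421 CPM in the others, a difference of -3.28 ± 0.12 log2 units (edgeR adjusted p = 3.9e-23). Foxp2 differed by -3.16 ± 0.14, the adenosine receptor gene Adora2a by -2.75 ± 0.23 and Tac1, which encodes substance P, by -2.53 ± 0.12. When GABA neurons with more than 1 UMI in the sum over 5 striatal genes, among them Ppp1r1b, Adora2a, Drd1 and Rgs9, were left out of both groups, a setting chosen after seeing the data, 457 chosen cells and 7911 others remained. Of 17 striatal genes still tested, 2 were then higher and 6 lower, with a median of -0.32. Foxp2, Tac1 and Meis2, which were not used to leave cells out, still differed, by -2.80, -1.14 and -0.86 log2 units, whereas Rarb and Crym no longer passed the test (-0.32 and -0.23). Prox1, Nfix, Mia, Trh and Calb2 remained higher, by 1.49, 2.23, 2.80, 2.28 and 0.73 log2 units.

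**Figure D4:**
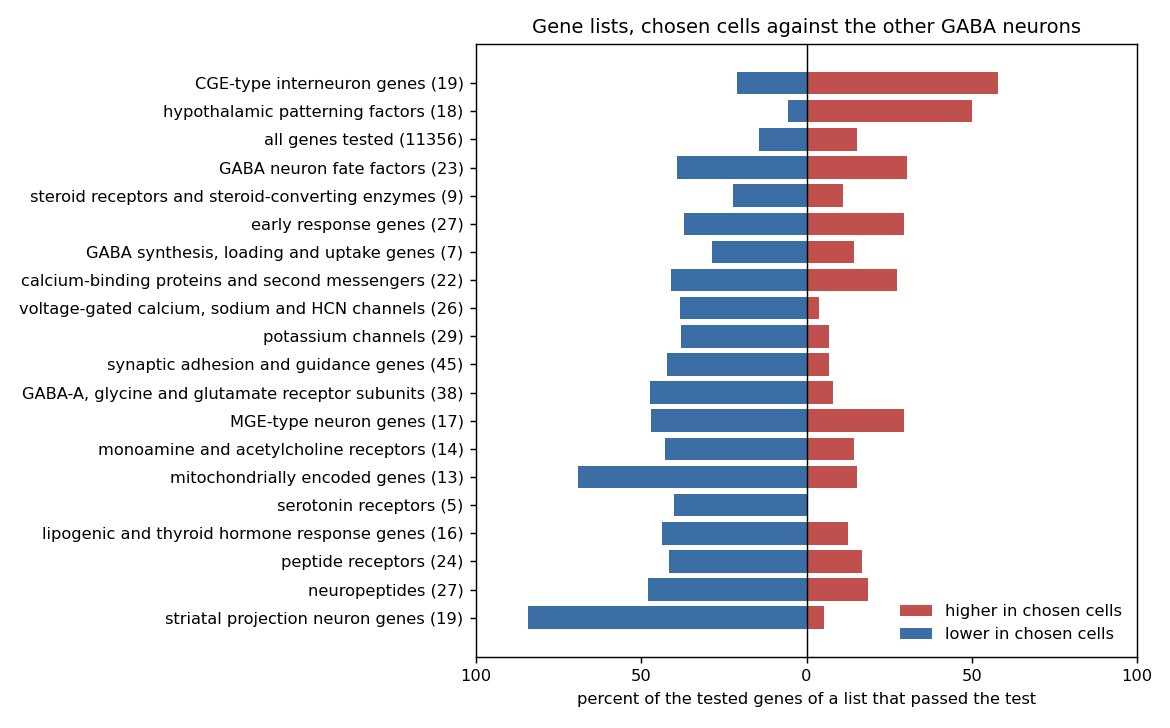
Percent of the tested genes of each list that passed the test as higher (right) or lower (left) in the chosen cells than in the other GABA neurons, with the number of genes tested in parentheses and lists ordered by their median difference. CGE-type genes and patterning factors passed more often as higher (11 of 19 and 9 of 18) than as lower. Striatal genes were mostly lower (16 of 19), and all genes tested stand at 15.2% and 14.4%.

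No other gene for serotonin receptors or for RF-amide peptides and their receptors passed as higher. Htr3b and Npffr2, named as the nearest to Htr3a and Npffr1, were not abundant enough to test. Of 5 tested serotonin receptor genes outside the rule, none was higher and 2 were lower. Htr1f was at 3.7 to 11.4 CPM in the chosen cells and 11.1 to 17.2 CPM in the others (-0.85 ± 0.23, edgeR adjusted p = 0.0040). Htr2c was at 52.0, 59.6, 63.6, 118 and 115 CPM in the chosen cells and 74.1 to 114 CPM in the others, so the groups overlapped, and it was lower in 3 of 5 libraries (-0.33 ± 0.10, edgeR adjusted p = 0.011). Htr1f turned to 0.24 log2 units without the cells carrying striatal genes (edgeR adjusted p = 0.61), and did not pass at a limit of 3 UMIs (edgeR adjusted p = 0.12), in cells with at least 2 of the 3 genes (0.32) or in thinned cells (0.053). Htr2c did not pass under DESeq2, without the block, in cells with at least 2 of the 3 genes (edgeR adjusted p = 0.18), or without female replicate 1, female replicate 2 or male replicate 1 (-0.26, -0.22 and -0.27 log2 units). Htr1b, Htr7 and Htr1a differed by -0.33 ± 0.17, 0.22 ± 0.19 and 0.01 ± 0.21 log2 units and did not pass. Of the other genes for RF-amide peptides and their receptors, only Qrfpr and Kiss1r, the kisspeptin receptor gene, were abundant enough to test. Neither passed: Qrfpr was at 3.68 to 10.99 CPM in the chosen cells and 5.98 to 9.38 CPM in the others (-0.19 ± 0.26), and Kiss1r differed by -0.02 ± 0.34.

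Genes of fat synthesis and of the response to thyroid hormone were more often lower than higher. Over all genes tested, 15.2% were higher and 14.4% lower. Of 16 tested, 2 were higher, Mid1ip1, which encodes the close relative and partner of the Thrsp protein, and Me1, a malic enzyme. The 7 lower genes included Nrgn, Scd2, Dio3, Thrb, Klf9 and Fasn, which encodes fatty acid synthase. Without the cells carrying striatal genes, 2 were higher and 2 lower of 15 tested.

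Other receptors were more often lower than higher, where 15.2% of all genes tested were higher and 14.4% lower. Of 24 peptide receptor genes, 4 were higher (Sstr1, Ghr, Tacr3 and Oprl1) and 10 lower. The somatostatin receptor gene Sstr1 was at 12.7 ± 5.1 and 5.2 ± 1.3 CPM in the chosen cells and the others (SD, n = 5; 1.34 ± 0.21 log2 units, edgeR adjusted p = 4.2e-06), and the orexin receptor gene Hcrtr2 at 1.7 ± 1.3 and 9.6 ± 2.4 CPM (-2.13 ± 0.33). Of 14 monoamine and acetylcholine receptor genes, 2 were higher and 6 lower. The dopamine receptor gene Drd5 was at 8.9, 8.9, 6.3, 4.6 and 5.5 CPM in the chosen cells, all above the 1.9 to 3.4 CPM of the others (1.85 ± 0.29 log2 units, edgeR adjusted p = 3.1e-06), while Drd1 and the muscarinic receptor gene Chrm1 were lower (-1.48 ± 0.19 and -1.68 ± 0.22). Drd1 was among the genes used to leave striatal cells out. Of 38 tested subunit genes of GABA-A, glycine and glutamate receptors, 3 were higher and 18 lower. Gabrd, the subunit of extrasynaptic GABA-A receptors, was at 1.1 ± 1.2 CPM in the chosen cells and 19.4 ± 2.7 CPM in the others (-3.51 ± 0.33, edgeR adjusted p = 7.7e-11).

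Ion channels and adhesion genes showed a similar lean, again beside 15.2% higher and 14.4% lower over all genes tested. Of 29 potassium channel genes 2 were higher and 11 lower, of 26 calcium, sodium and HCN channel genes 1 was higher and 10 lower, and of 45 genes of synaptic adhesion and axon guidance 3 were higher (Cntn5, Sema5a and Cbln2) and 19 lower. Cntn5, an adhesion protein, was higher by 0.86 ± 0.10 log2 units (edgeR adjusted p = 1.5e-08). Kcna1, a potassium channel, and Kcnab1, an auxiliary subunit of such channels, differed by -0.90 ± 0.12 and -0.82 ± 0.11, but by 0.25 and 0.08 without the cells carrying striatal genes, where neither passed. Of 9 steroid receptor and steroid enzyme genes, Hsd17b12 was higher (0.27 ± 0.08) and Ncoa1 and Nr3c2 were lower (-0.31 ± 0.12 and -0.54 ± 0.21); none of these 3 kept its call without the block.

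Of 27 tested neuropeptide genes, 5 were higher (Trh, Scg5, Tac2, Cck and Nppc) and 13 lower, with a median of -0.58 log2 units. The shares over all genes were 15.2% and 14.4%. Avp, which encodes vasopressin, was at 116, 156, 22.4, 8.3 and 60.5 CPM in the chosen cells and 874, 1338, 331, 349 and 592 CPM in the others, in the same library order. It was lower in 5 of 5 libraries, by 3.22 ± 0.09 on the log2 scale (edgeR adjusted p = 2.5e-26). Oligodendrocyte barcodes of these libraries held Avp at 61.0, 129, 45.5, 9.2 and 19.2 CPM, above the chosen cells in male replicates 1 and 2, and 30.6% of chosen cells, 29.9% of the others and 17.3% of oligodendrocyte barcodes had an Avp UMI. Penk, which encodes enkephalin, differed by -2.44 ± 0.11 log2 units. Tac2, which encodes neurokinin B, was at 54.7 to 148 CPM against 44.5 to 78.3 CPM (0.87 log2 units, edgeR adjusted p = 7.8e-08).

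Measures linked to cell handling were also compared. The mitochondrial share had a median of 3.04% in the chosen cells and 3.82% in the others, and of 13 mitochondrially encoded genes 2 were higher and 9 lower (mt-Nd1 by -0.47 ± 0.03 log2 units). Of 27 early response genes, which dissociation can induce, 8 were higher (Ier2 by 1.45 ± 0.15) and 10 lower (Egr4 by -1.31 ± 0.13); without the cells carrying striatal genes, 12 were higher and 1 lower of 25. Summed astrocyte markers were at 289 to 434 CPM in the chosen cells and 217 to 275 CPM in the others and higher in 5 of 5 libraries; all 8 of these genes were detected in both groups, and of 6 tested Aldoc was higher and Slc4a4 lower. Summed markers of excitatory neurons, a list that holds Trh, were at 120 to 242 CPM in the chosen cells and 25.2 to 50.4 CPM in the others; of 2 tested, Trh was higher, and Slc17a6 was at 0 by the rule. Their part, and that of depth, in the results above was not tested.

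Within the 2 clusters that held most of the chosen cells, a comparison added after seeing the data and with fewer cells, fewer genes passed. Against 805 other cells of cluster 0, 123 chosen cells in 4 libraries differed in 57 of 8818 genes (0.646%), 39 higher (0.442%) and 18 lower (0.204%). Prox1 was at 57.2 CPM in the chosen cells and 11.95 CPM in the others of that cluster (2.25 ± 0.25 log2 units, edgeR adjusted p = 4.9e-06), Nfix at 133 and 40.7 CPM (1.77 ± 0.19, edgeR adjusted p = 3.3e-06), and both were higher in 4 of 4 libraries. Nfib, Tekt2, Zbtb16 and Pax6 were higher too, and Lhx1, C1ql2 and Onecut2 were lower. In cluster 13, 104 chosen cells against 271 others differed in 232 of 5954 genes (3.9%), 87 higher (1.46%) and 145 lower (2.44%). There Mia was higher (1.08 ± 0.23, edgeR adjusted p = 0.0040), whereas Nfix and Nfib did not pass (0.41 ± 0.14 and 0.23 ± 0.14); Sostdc1, a secreted inhibitor of Wnt and BMP signals, and Nr4a2 were lower (-3.94 ± 0.51 and -2.49 ± 0.30). Prox1 was not abundant enough to test in cluster 13.

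A pair of other GABA groups was set beside the chosen cells. The first was GABA neurons with at least 2 UMIs of Sp8 and Scgn, genes of CGE-type and olfactory bulb interneurons; 18 cells in both groups were left out. Between these groups, 8.74% of the genes did not overlap across libraries, and 8.66% in the next comparison. In the 4 libraries with enough cells, 604 of 9100 genes differed (6.64%), 269 higher (2.96%) and 335 lower (3.68%) in the 497 chosen cells than in the 191 cells with Sp8 or Scgn. Prox1 did not pass the test, with 23.4, 27.8, 27.1 and 27.3 CPM in the chosen cells and 24.3, 32.3, 5.88 and 30.001 CPM in the cells with Sp8 or Scgn (difference 0.08 ± 0.25 log2 units, edgeR adjusted p = 0.92). Tac2 was at 95.1 ± 35.6 CPM in the chosen cells and 8.3 ± 5.3 CPM in the others (4.03 ± 0.28 log2 units, edgeR adjusted p = 1.9e-14), and Zic2, Mia, Zic5, Hspb8 and Trh were also higher. Nfix differed by 2.53 ± 0.17 log2 units (edgeR adjusted p = 7.1e-15). Lower genes were led by Fbxw13, Nr4a2, Lamb3 and Fign, with Nr4a2, an orphan nuclear receptor, at 8.2 ± 7.3 and 51.0 ± 12.1 CPM (-2.70 ± 0.30).

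The other was GABA neurons with at least 2 UMIs of Moxd1, a gene of a dimorphic preoptic cell group. The rule leaves out cells with more than 1 Moxd1 UMI, though 32 chosen cells lay in cluster 10, which has Moxd1 among its leading genes. Of 8979 genes, 565 differed (6.29%), 251 higher (2.8%) and 314 lower (3.5%) in 515 chosen cells than in 189 Moxd1 cells. Sst was at 207 ± 102 CPM in the chosen cells and 6021 ± 1117 CPM in the Moxd1 cells (SD, n = 4; -4.85 ± 0.18 log2 units, edgeR adjusted p = 4.7e-18), and Npy at 41.9 ± 27.1 and 1997 ± 654 CPM (-5.56 ± 0.18, edgeR adjusted p = 1.4e-19). Sfrp1, Igfbp4, Crhbp and Sox6 were lower as well. Trh (3.32 ± 0.21), Zic4, Zic5, Arhgap36 and the homeobox gene Zfhx3 (2.60 ± 0.19) were higher. Pmaip1, a gene of programmed cell death, had no UMI among 1993175 UMIs of the Moxd1 cells and 164 UMIs in the chosen cells, at least 19.2-fold higher against a floor of 3 UMIs over the group. Nfix did not pass the test here, with 123 to 164 CPM in the chosen cells and 123 to 185 CPM in the Moxd1 cells (-0.10 ± 0.13 log2 units). Prox1 did not pass either (-0.59 ± 0.21 log2 units, edgeR adjusted p = 0.11), though its 4 values in the chosen cells, 22.8 to 28.9 CPM, lay below the 34.8 to 54.7 CPM of the Moxd1 cells. Of the Moxd1 cells, 27 would have been chosen but for Moxd1, and Thrsp was at 27.5 ± 4.4 CPM in the group (SD, n = 4). The comparisons share the chosen cells, so their results are not independent.

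Between the sexes, the share of chosen cells among GABA neurons was 5.51, 4.38 and 6.15% in the female libraries and 3.75, 3.95 and 3.86% in the male ones, in replicate order. The female mean was 5.35 ± 0.90% and the male mean 3.85 ± 0.10% (SD, n = 3 each); all 3 female values were higher, which gives the smallest two-sided p that 3 against 3 libraries allow (exact permutation p = 0.1). The female value of 6.15% rests on 4 cells of 65 (95% Wilson interval 2.42 to 14.8%). Depth differed as well: median UMIs of the other GABA neurons were 8239, 8361 and 4645 in the female and 5923, 6641 and 4797 in the male libraries, so the 2 larger female libraries were the deepest. Cells were also thinned to 3000 UMIs and the rule applied to those counts. The share was then 1.26 ± 0.67% in females and 1.43 ± 0.50% in males (exact permutation p = 0.7). The order of the means was thus the reverse, but the libraries overlapped. They were at 1.18, 0.63 and 1.96% in females and 1.14, 1.16 and 2.00% in males, in replicate order. The 1.96% rests on 1 cell of 51. The part of depth in the sex difference was not tested.

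Within the chosen cells, 8 of 9619 genes differed between 2 female and 3 male libraries (0.0832%), 4 higher and 4 lower in females (0.0416% each), and 396 had an unadjusted p under 0.05. The ranges of the sexes did not overlap for 17.9% of genes. Of the 8, 5 follow the sex chromosomes. Xist was at 668 and 692 CPM in the females and had 1 UMI in the males, while Uty, Kdm5d and Eif2s3y had no UMI in the females and were at least 33.1-, 32.6- and 90.0-fold higher in the males against a floor of 3 UMIs over the female libraries; Ddx3y had 1 UMI in the females and 289 in the males. The other 3 genes, all higher in females, encode neuropeptides. Avp was higher by 2.86 ± 0.32 log2 units (edgeR adjusted p = 5.5e-05), Gal, which encodes galanin, by 2.06 ± 0.34 (edgeR adjusted p = 0.011) and Crh, which encodes corticotropin-releasing hormone, by 2.25 ± 0.40 (edgeR adjusted p = 0.028). In the other GABA neurons Avp was also higher in the females, at 874 and 1338 CPM against 331, 349 and 592 CPM in the males. Gal was too, at 271 and 359 against 229, 188 and 237 CPM. Crh overlapped there, at 46.2 and 42.2 against 33.9, 56.3 and 47.5 CPM. In the chosen cells, none of the 3 genes passed under DESeq2 (2.32, 2.28 and 2.19 log2 units, adjusted p = 0.99985 for each). With edgeR, Avp did not pass at a limit of 3 UMIs (adjusted p = 0.085). Gal did not pass at that limit, with doublets left out (adjusted p = 0.11) or without female replicate 2, male replicate 2 or male replicate 3, and Crh did not pass without female replicate 1, female replicate 2, male replicate 1 or male replicate 2. Oligodendrocyte barcodes ran the same way, with Avp at 61.0 and 129 CPM in the females and 45.5, 9.2 and 19.2 CPM in the males, Gal at 19.4 and 36.6 against 16.5, 6.1 and 6.9 CPM, and Crh at 2.5 and 3.1 against 1.2, 1.9 and 0.77 CPM; the part of free RNA in the sex difference was not tested. Single cells held much of this signal: 1 cell held 67.1% of the Avp UMIs of female replicate 1 and another 54.9% of those of female replicate 2. Without these cells Avp was at 38.5 and 70.5 CPM in the females and, treated alike, at 21.1, 7.4 and 52.2 CPM in the males, so that the sexes overlapped. For Gal, without the highest cell of each library, the females were at 126 and 147 CPM and the males at 83.4, 17.8 and 0 CPM; for Crh 1 cell held 82.1% of the UMIs of female replicate 1.

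The sex difference in the chosen cells was also set against that in the other GABA neurons. Of 11356 genes, 6 passed (0.0528%), 5 with a more female-high difference in the chosen cells (0.044%) and 1, Calb2, with a more male-high one (0.00881%). Penk was at 221 and 160 CPM in the chosen cells of the females and 153, 93.0 and 16.5 CPM in those of the males, without overlap, and without the highest cell of each library at 67.5 and 139 CPM against 89.0, 71.6 and 11.8 CPM, with overlap. In the other GABA neurons Penk was higher in the males, at 872 and 618 CPM in the females and 1055, 951 and 1069 CPM in the males. The interaction holds both differences. Calb2 was at 446 and 479 CPM in the females and 632 to 803 CPM in the males, and without the highest cells at 418 and 454 against 601 to 731 CPM, in both cases without overlap. Without female replicate 2, none of the 6 genes passed.

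**Figure D5:**
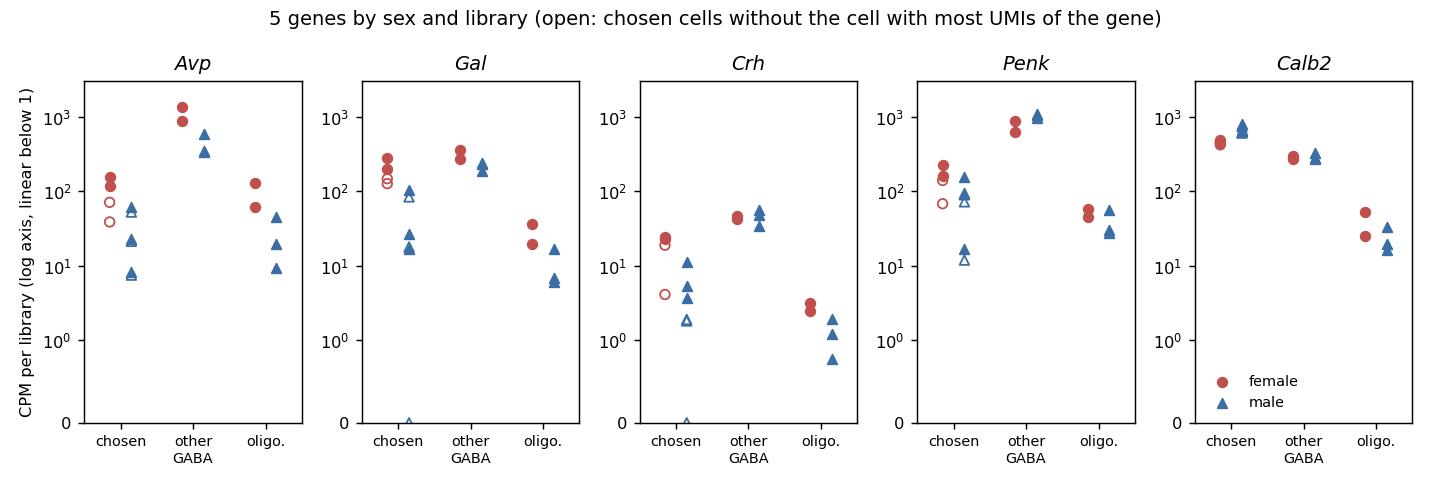
CPM of Avp, Gal, Crh, Penk and Calb2 in each of 5 libraries (circles female, triangles male; log axis, linear below 1) in the chosen cells, the other GABA neurons and oligodendrocyte barcodes; open symbols give the chosen cells without the cell with most UMIs of the gene. Filled Avp values of the chosen cells separate the sexes (116 and 156 against 8.3 to 60.5 CPM), and the open ones overlap.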

How the data were processed

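UMI counts per gene and cell barcode were deposited by the authors as 1 matrix for all 6 libraries, raw and not normalized, with the library given by the number that ends each barcode. The submitters' processing notes name Cell Ranger 2.0.0 and build mm10. For the annotation, the strand of counting and the calling of cells, nothing is stated: not given in the sources used here. The 6 libraries held 1278429 to 81162330 UMIs. Oligodendrocyte barcodes (at least 4 UMIs of Mog, Mag and Opalin, at most 3 of Snap25 and Syt1 and at most 1 of Cx3cr1 and Cldn5), which should lack most neuronal genes, served as a measure of free RNA.

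UMIs were summed per library and group of cells and compared by the edgeR 4.0.16 quasi-likelihood test (R 4.3.3) with TMM scaling, its expression filter (minimum count 10) and the library as block; sex was compared without a block, and the sex difference between groups by an interaction term. Libraries needed 10 cells in each group. Genes of the rule are described without a test, except in cells chosen without them. A gene passed at a Benjamini-Hochberg adjusted p under 0.05 over all genes tested. Sums of cells from the same pools share their source, and the interaction pools the spread within libraries, so its p-values are small for genes that vary between pools. Clusters came from 2000 variable genes without those of the rule, Prox1, sex, early response and mitochondrial genes, centred per library, 30 principal components, 15 neighbours and Leiden (leidenalg 0.10.2) at resolution 1.5. Scrublet ran in scanpy 1.11.5 at a rate of 0.06. Thinning drew 3000 UMIs per cell and left out 6 chosen cells and 953 others. The tests were tested on simulated data.

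The cells, lists and tests were chosen with earlier results of these data known. Genes are named where they had the largest change in each direction (up to 12 genes, or 8 for the Sp8 or Scgn and Moxd1 groups, at least 20 CPM in the higher group and the same direction in every library) or the smallest p of a list (up to 3), and for sex where they passed; names given as members of a list with only a direction come from its count. Values of Nfia, Adarb2, Lamp5, Reln, Pvalb and Tac2, of Nfix and Prox1 against the Sp8 or Scgn and Moxd1 groups, and of the genes within combinations and clusters were picked after they were seen. The single-cell weights, the comparisons within clusters and the setting without striatal genes were chosen after seeing the data. The replicate numbers do not pair the sexes: the labels state separate pools, and deviations of same-numbered libraries correlated at 0.0035 and 0.122. Alternatives were DESeq2 1.42.0, no scaling, no filter, no block or a replicate block, each library left out, doublets left out, stricter gates and thinned cells. Some single genes that entered the fits and the list counts are not reported here.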

Additional observations from a re-analysis of the deposited data

Results flagged for a closer look

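For 6 genes, the difference between females and males was not the same in the chosen cells as in the other GABA neurons (edgeR interaction test, 6 of 11356 genes, 0.0528%). The interaction, as female minus male in the chosen cells less the same in the others, was 2.28 ± 0.38 log2 units for Crh, 1.43 ± 0.22 for Gal, 1.21 ± 0.23 for Avp, 1.20 ± 0.17 for Penk, 0.56 ± 0.09 for the long noncoding RNA Gm42418 and -0.52 ± 0.08 for Calb2 (SE; adjusted p = 0.0038, 0.0024, 0.032, 0.0018, 0.0038 and 0.0024).

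Calb2 in the chosen cells was at 446 and 479 CPM in the females and 632, 653 and 803 CPM in the males, with no overlap, while the other GABA neurons were at 269 and 294 CPM in the females and 272, 276 and 321 CPM in the males. No single cell held more than 14.4% of its UMIs in these 5 libraries, and without the highest cell of each library the females were at 418 and 454 CPM and the males at 601 to 731 CPM. In the chosen cells alone, Calb2 did not pass the test between the sexes (-0.52 ± 0.14, adjusted p = 0.58).

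For Crh, Gal, Avp and Penk, the highest cell held a larger share of the UMIs than it did for Calb2 in each of these 5 libraries. Some male totals were too small for this to mean much. There were 9 Avp UMIs in male replicate 2 and 3 Penk UMIs in male replicate 3, where Calb2 had 709 and 146. Penk was at 221 and 160 CPM in the chosen cells of the females and 153, 93.0 and 16.5 CPM in those of the males, and 1 cell held 69.9% of its UMIs in female replicate 1. In the other GABA neurons Penk ran the other way, at 872 and 618 CPM in the females and 1055, 951 and 1069 CPM in the males. Crh rested on 5 and 13 cells with a UMI in the 2 female libraries and on 3, 3 and 1 in the male libraries. Gm42418 varied between pools in every group, at 181 to 2503 CPM in the chosen cells, 550 to 2650 CPM in the other GABA neurons and 316 to 4552 CPM in oligodendrocyte barcodes. Without female replicate 2, none of the 6 genes passed, and no gene did. The part of single cells, free RNA and pools in these values was not tested.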

How the results depend on the processing

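In cells chosen without them, Htr3a, Npffr1 and Thrsp kept their direction and call in every alternative that tested them. The differences were 1.98 to 2.28 over 8 alternatives, 1.502 to 1.93 over 9 and 1.78 to 2.18 log2 units over 9. Htr3a was not among the genes tested in thinned cells. Prox1 (1.46 to 2.55) and Nfix (2.17 to 2.77) likewise kept theirs against the other GABA neurons over 17 alternatives. Each set of alternatives includes leaving out female replicate 3, which was in none of these fits, so that alternative repeats the main fit. Counts of genes depended more on the setting, and the cause was not tested. Some settings also entered fewer cells or UMIs. Against the other GABA neurons (1721 higher and 1639 lower), 664 and 862 passed with no replicate block, 925 and 822 in cells with at least 2 of the 3 genes, and 1016 and 802 in thinned cells; DESeq2 gave 1008 lower, and a limit of 3 UMIs 1041 lower. Of the 3360 genes, 1526 passed in the same direction with no replicate block and 1675 in thinned cells, none in the opposite one; without the cells carrying striatal genes 2012 did and 12 passed in the opposite direction. Leaving out 1 library of the fit gave 1349 to 1920 higher and 1246 to 1633 lower. Against the Sp8 or Scgn cells, DESeq2 gave 60 higher and 105 lower, thinned cells 82 and 119, no replicate block 125 and 174, and leaving out 1 library 155 to 269 higher and 209 to 338 lower, the lowest without male replicate 2 and, at 175 and 218, without female replicate 2. Against the Moxd1 cells, DESeq2 gave 51 and 129, thinned cells 65 and 122, no filter 414 higher, no replicate block 111 higher, and leaving out 1 library 141 (without male replicate 1) to 251 higher and 219 to 314 lower.

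Between the sexes in the chosen cells (4 higher and 4 lower in females), the replicate block gave 55 and 36, no filter 23 and 20, DESeq2 1 higher, a limit of 3 UMIs 2 higher, and leaving out 1 library 2 to 9 higher and 4 to 9 lower, with 9 and 9 without male replicate 1 and 2 and 8 without male replicate 2. The replicate block rests on 2 pairs that the labels do not link. For the interaction (5 and 1), DESeq2 gave 0 in the first direction, no filter 15 and 13, doublets left out 4 in the second, and leaving out 1 library 0 to 16 and 0 to 9, with 0 and 0 without female replicate 2, 16 and 9 without male replicate 1, 8 and 2 without female replicate 1, 6 in the second without male replicate 2 and 2 in the second without male replicate 3. The sex difference in the share of chosen cells, 1.496 percentage points, was -0.409 with a limit of 3 UMIs and -0.175 in thinned cells (exact permutation p = 0.9 and 0.7), and 1.09 to 1.98 with 1 library left out.

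Genes that changed sign lay near 0 or did so without the cells carrying striatal genes, where Htr1f was at 0.24, Htr7 at -0.16, Slc38a1 at -0.076, Kcnab1 at 0.076, Kcna1 at 0.25, Egr4 at 0.11 and Htr1a at -0.29. Htr1a was also at -0.028 with no scaling and with no filter, -0.010 with no replicate block, -0.15 at a limit of 3 UMIs, -0.043 in cells with at least 2 of the 3 genes, -0.0093 in thinned cells and, with 1 library left out, at -0.078 to 0.22. Qrfpr was at 0.086 at a limit of 3 UMIs and 0.31 in cells with at least 2 of the 3 genes, and Kiss1r at 0.033 under DESeq2, 0.0041 with no replicate block and -0.31 to 0.063 with 1 library left out. Between the sexes, Pbdc1 was at -0.0030 under DESeq2, -0.084 at a limit of 3 UMIs and -0.052 to 0.12 with 1 library left out, and Kdm5c at -0.0044 to 0.40 with 1 library left out. Shares of cells with a UMI move with depth, which was higher in the chosen cells.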
